A study of Mus musculus with 12 samples.

Results

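Chromatin accessibility was examined at 8 genes of somatic hypermutation and antibody class switching: Ung, Apex1, Msh6, Exo1, Polh, Trp53bp1, Rif1 and Lig4. A peak, a 501 bp region of open chromatin in the deposited table, was taken for a gene when that gene was the nearest protein-coding RefSeq span to the peak's midpoint and lay within 50 kb. This gave 23 peaks of 68689, at 7 of the 8 genes. Polh, Msh6 and Trp53bp1 had 5 peaks each, Lig4 had 3, Ung and Rif1 had 2 each, Exo1 had 1 and Apex1 had 0. The study profiled germinal center B cells, sorted from the spleens of C57BL/6 mice aged 8 to 10 weeks, by Omni-ATAC-seq, which marks open DNA through the adapters that a transposase places there. There were 4 groups of 3 libraries: Pbrm1-/- (HOMO) CB, Pbrm1+/+ (WT) CB, HOMO CC and WT CC. Pbrm1 encodes a subunit found only in the PBAF form of the SWI/SNF chromatin remodelers. The labels do not spell out CB and CC, and the names of the count columns carry a tag that is not explained there. The sources used here do not say how the Pbrm1 allele was made or whether other cells of the mice lacked the gene.

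In germinal center B cells cytosine is turned into uracil in antibody genes. Base excision starts when UNG, the product of Ung, removes that uracil, and APE1, the product of Apex1, can cut the site left behind. Mismatch repair reads the same lesion as a mispair: MSH6 binds it as part of a dimer, and EXO1 resects the strand. Filling the gap with polymerase eta, the product of Polh, puts mutations at A and T bases. During class switching the breaks are held for end joining by 53BP1 (Trp53bp1) and RIF1, which limit resection, and are sealed by DNA ligase IV (Lig4). Germinal center B cells are known to run these repair reactions while they divide.

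RefSeq promoter windows of GRCm38.p6 (mm10), from 250 bases before to 50 after a start site, were found for 6 of the 8 genes, with 7 windows in all. No window was found for Exo1 or Rif1. Of the 7 windows, 5 are printed, which lay under the strongest start-site peak of their gene. The Ung window and a second Lig4 window, under weaker peaks, are not printed. Each is read in the direction of transcription. Capitals mark motif matches on either strand. The motifs searched were those of NRF1, the GC box, the CCAAT box, the E-box, ETS factors, E2F and the cyclic AMP response element, with the letters given below.

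Polh, chr17:46202592-46202891, minus strand: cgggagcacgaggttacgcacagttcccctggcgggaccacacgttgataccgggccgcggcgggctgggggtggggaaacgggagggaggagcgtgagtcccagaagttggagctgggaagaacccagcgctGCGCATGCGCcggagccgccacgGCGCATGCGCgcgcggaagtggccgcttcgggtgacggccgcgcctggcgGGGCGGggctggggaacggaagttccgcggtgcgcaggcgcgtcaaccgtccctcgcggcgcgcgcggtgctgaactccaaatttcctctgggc

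Msh6, chr17:87974800-87975099, plus strand: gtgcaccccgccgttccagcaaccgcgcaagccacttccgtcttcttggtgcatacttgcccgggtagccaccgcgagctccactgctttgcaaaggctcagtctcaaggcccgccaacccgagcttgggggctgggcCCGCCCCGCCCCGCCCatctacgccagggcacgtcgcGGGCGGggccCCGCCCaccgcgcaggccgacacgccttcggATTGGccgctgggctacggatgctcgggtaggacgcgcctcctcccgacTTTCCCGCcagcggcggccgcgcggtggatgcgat

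Trp53bp1, chr2:121271358-121271657, minus strand: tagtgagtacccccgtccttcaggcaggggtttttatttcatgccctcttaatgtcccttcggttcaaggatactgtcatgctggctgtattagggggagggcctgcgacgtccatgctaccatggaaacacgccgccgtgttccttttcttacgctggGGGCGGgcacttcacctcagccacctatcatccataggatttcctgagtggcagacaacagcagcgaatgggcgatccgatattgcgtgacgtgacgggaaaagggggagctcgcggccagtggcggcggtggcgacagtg

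Lig4, chr8:9976262-9976561, minus strand: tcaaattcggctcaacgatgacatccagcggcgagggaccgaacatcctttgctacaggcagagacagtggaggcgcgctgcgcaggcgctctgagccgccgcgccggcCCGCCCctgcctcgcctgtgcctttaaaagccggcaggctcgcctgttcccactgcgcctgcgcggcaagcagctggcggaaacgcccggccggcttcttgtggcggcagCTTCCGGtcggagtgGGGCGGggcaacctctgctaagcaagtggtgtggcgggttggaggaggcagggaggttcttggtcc

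Apex1, chr14:50924699-50924998, plus strand: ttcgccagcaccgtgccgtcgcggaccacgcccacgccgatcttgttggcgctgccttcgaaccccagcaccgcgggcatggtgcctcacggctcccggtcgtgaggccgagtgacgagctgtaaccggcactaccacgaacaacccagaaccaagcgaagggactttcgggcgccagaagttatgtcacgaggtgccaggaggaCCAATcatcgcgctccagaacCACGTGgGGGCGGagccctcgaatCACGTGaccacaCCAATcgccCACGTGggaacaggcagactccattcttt

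The Polh window held 2 matches to the NRF1 motif GCGCATGCGC, which has a match in 0.971% of 32851 promoter windows. Like Trp53bp1 it also held 1 GC box, GGGCGG, a motif of 35.7% of all windows. Msh6 held 5 GC boxes, some of them overlapping. It also had 1 CCAAT box, spelled CCAAT and found in 37.4% of windows. One E2F match was present in Msh6, where TTTCCCGC and TTTGGCGC were the letters searched for and 1.56% of windows had either. The printed Lig4 window had 2 GC boxes and 1 match to the ETS letters CCGGAAG, which 8.86% of all windows hold. The Lig4 window that is not printed, at its other start (chr8:9977631-9977930), held 1 NRF1 match and 1 ETS match. The Ung window held 2 GC boxes. Apex1 held 3 E-boxes, with the letters CACGTG that occur in 7.15% of windows, next to 2 CCAAT boxes and 1 GC box. The cyclic AMP response element TGACGTCA, present in 1.79% of windows, was in none of the 7. GC content was 57.3% to 72.0% in the 7 windows, against a median of 52.7% in all windows. A match is a stretch of letters and not evidence of binding.

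Total counts in peaks ran from 6431354 in HOMO CC 1 to 45590454 in HOMO CB 3, and the HOMO libraries numbered 1 were the shallowest of the 12. Whether each library stands for a separate mouse is not stated, so p-values measure the spread between these libraries, which may be partly technical. All 10 germinal center B cell markers had a peak. The summed level of their strongest peaks was 513 to 522 CPM (counts scaled to the library's normalised total) in HOMO CB, 467 to 474 in WT CB, 444 to 492 in HOMO CC and 400 to 416 in WT CC, so it moved with genotype and with population. Among markers of other cells, no peak was assigned to the T cell genes Cd3g, Cd8a and Il7r, the myeloid genes Lyz2 and Mpo, the erythroid genes Gata1 and Hbb-bs or the natural killer gene Klrd1. The remaining T cell markers (5 of 8) summed to 69.3 to 78.7 CPM in HOMO CB, 75.7 to 77.8 in WT CB, 70.8 to 74.7 in HOMO CC and 70.1 to 76.9 in WT CC. Natural killer markers (3 of 4 with a peak) summed to 49.4 to 52.1 CPM in HOMO CB and 49.5 to 55.8 in WT CB. Their sums in CC were 45 to 50.7 CPM in HOMO and 47.6 to 49.4 in WT. Dark zone markers (5 of 5 with a peak) summed to 287 to 316 CPM in HOMO CB and 256 to 276 in WT CB. In CC their sums were 259 to 278 CPM in HOMO and 242 to 248 in WT, again without overlap of genotypes. Light zone markers (4 of 5) summed to 239 to 255 CPM in HOMO CB and 228 to 256 in WT CB. Their CC sums were 216 to 265 CPM in HOMO and 208 to 245 in WT, overlapping between genotypes and populations. Other lists stood apart between groups. Erythroid markers (3 of 5 with a peak) summed to 45.9 to 51.9 CPM in HOMO CB and 56.7 to 58.2 in WT CB, with overlapping sums in CC. Plasma cell markers (4 of 4) summed to 121 to 138 CPM in HOMO CB and 139 to 140 in WT CB, also with overlapping sums in CC. Myeloid markers (4 of 6) summed to 95.5 to 119 CPM in HOMO CC and 89.0 to 93.4 in WT CC, against 69.4 to 93.9 in HOMO CB and 71.6 to 82.6 in WT CB. The part of these lists in the results below was not tested. At Pbrm1 itself the strongest peak had 24.5 to 39.5 CPM over the 12 libraries, with a log2 fold change of -0.04 in CB and -0.09 in CC. As the extent of the deletion is not stated, that peak does not check the genotype labels.

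Every gene with a peak had its highest accessibility within 342 bp of a start site or gene end, and all peaks have one length, so levels can be compared between genes. Averaged over 12 libraries, the strongest peaks ran in the order Msh6 (76.9 CPM), Ung (62.4), Lig4 (55.8), Trp53bp1 (49.6), Rif1 (39.7), Exo1 (29.0) and Polh (28.9). The Msh6 peak ranked at percentile 98.9 of all peaks and at percentile 96.3 of the 16106 gene-end peaks, whose midpoints lie 1 kb or less from an end of any span. Polh and Exo1, at 84.7 and 84.8 among all peaks, were near the middle of the gene-end peaks, at 60.9 and 61.0. The other member peaks were weaker than the strongest of their gene. The highest, Trp53bp1 peak_7894 (43.3 CPM, percentile 92.7 of all peaks), lies inside that span at an end of another gene. Those inside a gene and more than 1 kb from any span end were led by Lig4 peak_30030 (19.3 CPM, percentile 75.0). Polh peak_61503 followed (12.6 CPM, percentile 63.5). Of the 23 peaks, 16 had their midpoint inside the span, 10 were gene-end peaks, and the most distant lay 34611 bp from Lig4.

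**Figure D1:**
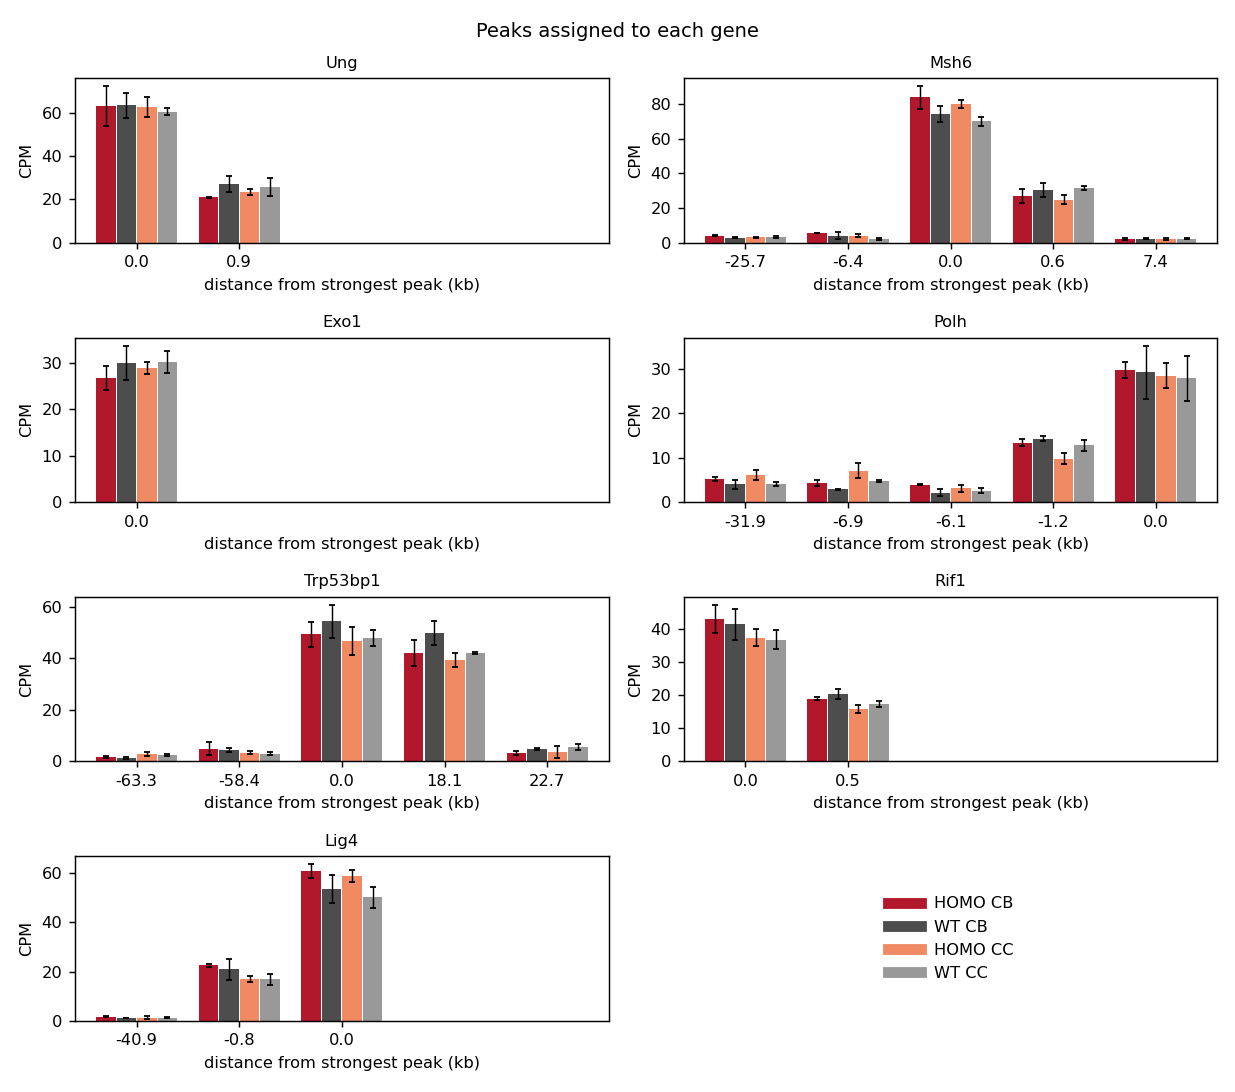
Mean CPM (bars, with SD as error bars, n = 3 libraries) at each of the 23 peaks, by gene, for HOMO CB, WT CB, HOMO CC and WT CC. The x axis gives each peak's distance in kb along the chromosome from the strongest peak of its gene, which stood at 76.9 CPM for Msh6 and 28.9 CPM for Polh over all libraries.

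The first question was whether these genes are more or less open without Pbrm1. None of the 23 peaks passed the test in either population, while 4.63% of all peaks did in CB and 2.75% in CC. Over all peaks these were 3178 calls in CB, or 341 without HOMO CB 2, and 1889 in CC, or 17 without HOMO CC 2. The test was edgeR's quasi-likelihood test over all 68689 peaks, at a Benjamini-Hochberg adjusted p under 0.05. Unadjusted p was under 0.05 at 6 member peaks in CB and 8 in CC, against 13550 and 11795 of all 68689 peaks. DESeq2 called 1 member peak in CB (Polh peak_61502) and 0 in CC, against 4258 and 3113 of all peaks. The median log2 fold change (HOMO over WT) was 0.056 in CB and 0.027 in CC, against 0.007 and 0.024 over all peaks. The 95% intervals of the member peaks had half-widths of 0.17 to 0.72, and estimates of up to 0.95 in size missed the threshold. The 10 gene-end peaks had medians of -0.059 and -0.019, against -0.113 and -0.067 over all gene-end peaks, of which 9.43% were called in CB and 5.78% in CC. In bulk libraries, fewer cells with an open site and less opening per cell cannot be told apart.

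**Figure D2:**
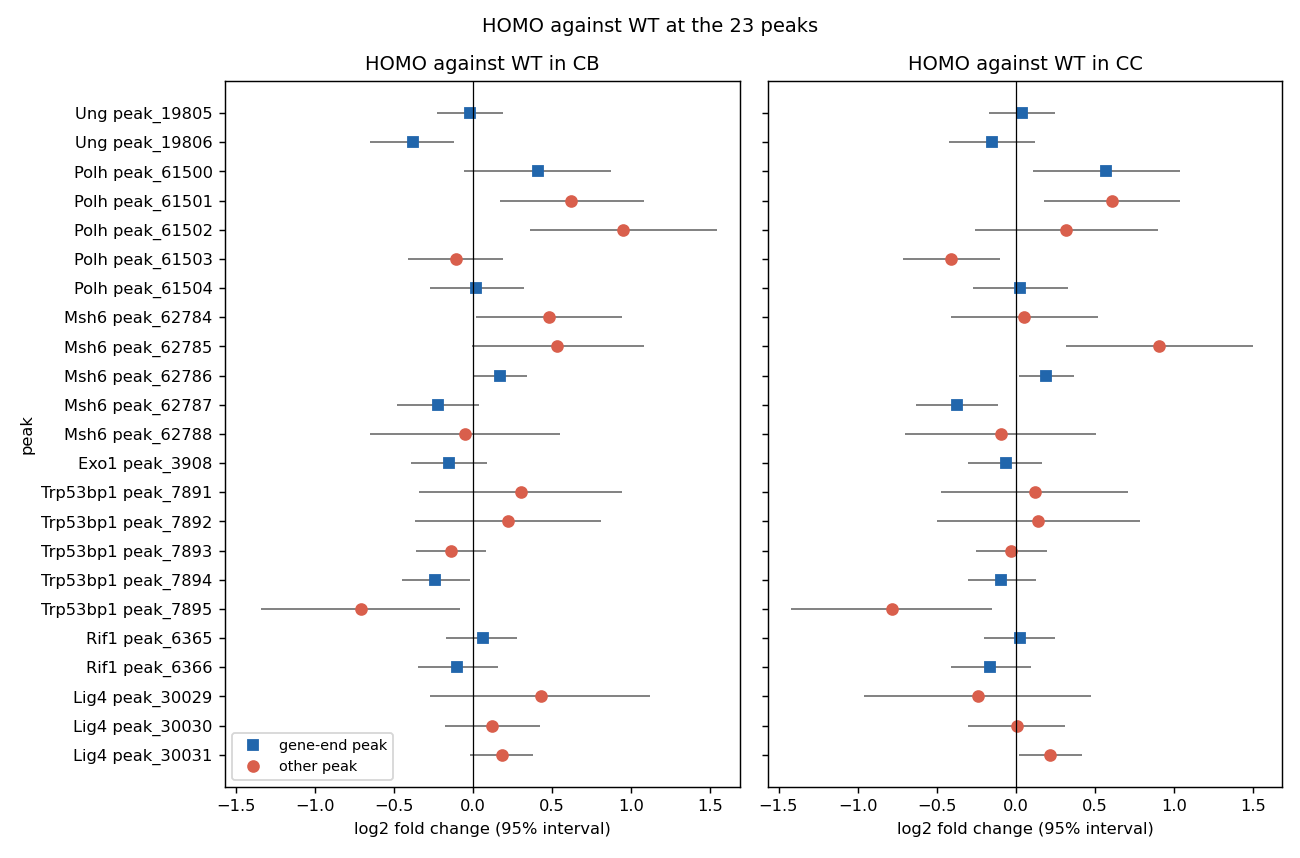
Log2 fold change of HOMO against WT (x axis, points, with 95% intervals as lines) for the 23 peaks (y axis), in CB on the left and CC on the right; squares are gene-end peaks and circles other peaks. Estimates ran between -0.71 and 0.95 in CB and between -0.78 and 0.91 in CC, and none passed the test at an adjusted p under 0.05.

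Ung, the uracil glycosylase gene, differed between genotypes by less than the spread between libraries at its strongest peak. Its strongest peak (peak_19805, chr5:114130527-114131027) had 73.5, 56.6 and 59.0 CPM in HOMO CB and 58.9, 61.0 and 70.0 CPM in WT CB. The CC libraries held 67.6, 58.0 and 62.3 CPM in HOMO and 58.8, 61.4 and 61.4 CPM in WT. The groups overlapped in both populations, with HOMO CB 1 the highest of all libraries. The log2 fold change was -0.02 in CB (95% interval -0.23 to 0.19) and 0.04 in CC (-0.17 to 0.25). This peak lies in the overlap of the Ung and Alkbh2 spans, so its reads belong to both genes. The second peak, 875 bp further into Ung, had 20.7, 21.1 and 20.9 CPM in HOMO CB, against 25.7, 24.2 and 31.5 CPM in WT CB. All HOMO CB libraries were below all WT CB libraries there, yet the change missed the threshold (peak_19806, log2 fold change -0.38, SE 0.13, edgeR adjusted p = 0.0903). In CC the groups overlapped at that peak (-0.15, adjusted p = 0.601). A further peak beside the Ung start was nearest to Alkbh2 and so not among the 23 (peak_19804). Its groups overlapped in both populations (-0.22 in CB, edgeR adjusted p = 0.652, and -0.06 in CC, adjusted p = 0.933).

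Apex1, the abasic endonuclease gene next in base excision, had no peak under the nearest-span rule because its promoter is shared with Osgep, a tRNA-modification gene that runs the other way. The peak over the printed Apex1 window (peak_53175, chr14:50924593-50925093) had 36.3, 37.0 and 41.3 CPM in HOMO CB and 38.1, 37.1 and 55.0 CPM in WT CB. Among CC libraries the values were 35.8, 36.1 and 39.1 CPM in HOMO and 41.2, 36.9 and 42.6 CPM in WT. The groups overlapped in both populations, and WT CB 3 stood above the rest. The estimates were -0.19 for CB (log2, SE 0.12, edgeR adjusted p = 0.424) and -0.12 for CC (SE 0.13, adjusted p = 0.691). A second, weaker peak on the Osgep side (peak_53174) had 7.33, 7.30 and 8.86 CPM in HOMO CB and 11.3, 9.85 and 11.5 CPM in WT CB. In CC it had 8.13, 6.93 and 6.87 CPM in HOMO and 10.4, 9.93 and 10.8 CPM in WT. HOMO was thus lower without overlap in both populations, as at 6.08% of all peaks. The estimates missed the threshold (-0.47 in CB, edgeR adjusted p = 0.0889, and -0.53 in CC, adjusted p = 0.076). Apex1 lies 19.8 Mb from the nearer end of Pbrm1 on chromosome 14.

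Msh6, the lesion-binding mismatch repair gene, did not pass the test at either of its start-site peaks, whose estimates had opposite signs. The peak over the printed Msh6 window (peak_62786, chr17:87974599-87975099) had 90.8, 82.3 and 78.1 CPM in HOMO CB and 76.6, 77.1 and 69.0 CPM in WT CB. The same peak had, in CC, 79.3, 82.3 and 78.0 CPM in HOMO and 72.6, 67.6 and 69.5 CPM in WT. The lowest HOMO library was above the highest WT library in each population. The log2 estimates were 0.17 for CB (SE 0.08, edgeR adjusted p = 0.259) and 0.19 for CC (SE 0.08, adjusted p = 0.229), neither past the threshold. The other start-site peak, 598 bp downstream, had lower estimates in HOMO (-0.22 in CB), with 27.9, 22.9 and 23.6 CPM in HOMO CC and 31.6, 30.6 and 32.8 CPM in WT CC (peak_62787, -0.37, SE 0.13, adjusted p = 0.116). Among the distal Msh6 peaks, one 6604 bp upstream had the smallest adjusted p of the 23 peaks in CC. It had 5.03, 3.28 and 4.09 CPM in HOMO CC and 2.79, 1.63 and 2.06 CPM in WT CC (peak_62785, 0.91, SE 0.28, adjusted p = 0.0862).

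Exo1, the exonuclease gene, had a single peak, 245 bp outside its lower-coordinate end (peak_3908, chr1:175880273-175880773). It held 24.0, 27.0 and 29.0 CPM in HOMO CB, 26.1, 33.6 and 30.3 CPM in WT CB. HOMO CC had 29.1, 30.1 and 27.6 CPM, and WT CC had 33.0, 29.5 and 28.5 CPM. All 4 groups overlapped. The log2 fold change was -0.15 in CB (95% interval -0.39 to 0.09) and -0.06 in CC (-0.30 to 0.17).

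Polh, the error-prone polymerase gene, had overlapping genotypes at its promoter and mixed directions at 3 sites inside the gene, none past the threshold. The promoter peak (peak_61504, chr17:46202358-46202858), whose reads are shared with the divergent gene Xpo5, had 28.0, 31.6 and 30.2 CPM in HOMO CB and 26.0, 25.8 and 36.2 CPM in WT CB. CC values were 26.3, 27.4 and 31.8 CPM in HOMO and 23, 27.3 and 33.3 CPM in WT. The groups overlapped and WT CB 3 was the highest library. The log2 fold change was 0.02 in CB (95% interval -0.27 to 0.32) and 0.03 in CC (-0.27 to 0.33).

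Inside Polh, 6945 bp downstream of the start, peak_61501 (chr17:46195446-46195946) had 3.80, 5.10 and 4.06 CPM in HOMO CB and 2.88, 2.75 and 2.89 CPM in WT CB. In CC it had 6.21, 9.05 and 6.10 CPM in HOMO and 4.89, 4.88 and 4.44 CPM in WT. Every HOMO library was above every WT library of its population, as at the Msh6 promoter peak. Genotypes differed by 0.62 (log2) in CB (SE 0.22, edgeR adjusted p = 0.105) and by 0.61 in CC (SE 0.21, adjusted p = 0.113). The next peak, 6135 bp downstream, had the smallest adjusted p of the 23 in CB. It had 3.80, 4.01 and 3.95 CPM in HOMO CB and 1.17, 2.63 and 2.45 CPM in WT CB (peak_61502, 0.95, SE 0.28, adjusted p = 0.058), and in CC the groups overlapped there (0.32, adjusted p = 0.613). The strongest inner site, 1272 bp downstream, went the other way in CC, with 10.9, 8.45 and 10.0 CPM in HOMO CC and 12.1, 12 and 14.2 CPM in WT CC (peak_61503, -0.41, adjusted p = 0.139). In CB its groups overlapped (-0.11, adjusted p = 0.726).

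At the starts of the end-protection genes Trp53bp1 and Rif1 no difference between genotypes passed the test. The Trp53bp1 start peak (peak_7893, chr2:121271190-121271690) had 46.6, 46.4 and 55.0 CPM in HOMO CB and 50.3, 51.2 and 61.7 CPM in WT CB. In CC it had 41.4, 46.2 and 52.3 CPM in HOMO and 44.5, 50.6 and 48.6 CPM in WT. The groups overlapped, with WT CB 3 again the highest library, and the log2 fold changes were -0.14 in CB (95% interval -0.36 to 0.08) and -0.03 in CC (-0.25 to 0.20). The strongest Rif1 peak (peak_6365, chr2:52072550-52073050) had 41.5, 39.9 and 47.9 CPM in HOMO CB and 39.6, 37.8 and 46.7 CPM in WT CB. In CC it had 35.6, 36.3 and 40.3 CPM in HOMO and 34.3, 36.1 and 40.0 CPM in WT. Here too the groups overlapped, with log2 fold changes of 0.06 (-0.17 to 0.28) and 0.03 (-0.20 to 0.25). The Trp53bp1 span reaches across an end of Map1a, a microtubule protein gene, and 2 of its 5 peaks lie there. One of these, tied between both genes, had the lowest estimates of the 23 peaks in both populations (peak_7895, adjusted p = 0.19 for -0.71 in CB and 0.178 for -0.78 in CC).

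Lig4, the ligase gene, was the one member whose summed counts passed the test, a call that depended on which peaks were summed. Its start peak under the printed window (peak_30031, chr8:9976054-9976554) had 63.9, 59.9 and 58.7 CPM in HOMO CB and 49.6, 50.6 and 60.0 CPM in WT CB. In CC it had 59.4, 60.6 and 56.1 CPM in HOMO and 47.1, 48.4 and 55.1 CPM in WT. WT CB 3 fell inside the HOMO CB range, while in CC the groups did not overlap. Log2 fold changes of 0.18 in CB (SE 0.09, edgeR adjusted p = 0.302) and of 0.22 in CC (SE 0.10, adjusted p = 0.231) missed the threshold.

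Summed over its 3 peaks, Lig4 had 88.9, 88.7 and 84.1 CPM in HOMO CB and 71.9, 76.9 and 74.9 CPM in WT CB. In CC the sums were 83.8, 82.2 and 74.6 CPM in HOMO and 66.9, 71.4 and 72.0 CPM in WT. Neither population had overlapping groups. Single peaks were higher in HOMO without overlap in both populations at 3.19% of all peaks. For gene sums that share was not computed. In edgeR's test over 14357 genes, Lig4 rose in CB (log2 fold change 0.23, SE 0.07, adjusted p = 0.0455) and did not pass in CC (0.19, SE 0.07, adjusted p = 0.115). Of all genes 7.29% were called in CB and 4.31% in CC, and 2.48% were called higher in CB, where Lig4 was 1 of 7 members. A further peak, at the other RefSeq start of Lig4 and nearest to its neighbour Abhd13, is not in these sums. It had 18.3, 17.1 and 18.9 CPM in HOMO CB and 21.0, 18.6 and 25.0 CPM in WT CB, with overlapping groups there and in CC (peak_30032, -0.26 and -0.15, adjusted p = 0.302 and 0.63). With that peak in the sum, an alternative added after seeing the data, Lig4 did not pass in CB (0.14, SE 0.06, edgeR adjusted p = 0.168). The call was also lost in 9 of the 12 fits that left out a library, with adjusted p up to 0.183 without HOMO CB 2. Germinal center B cell marker sums were higher in HOMO CB as well (513 to 522 against 467 to 474 CPM), and their part in the Lig4 result was not tested. The other 6 genes had summed log2 fold changes of -0.12 to 0.17 in CB and -0.05 to 0.09 in CC.

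**Figure D3:**
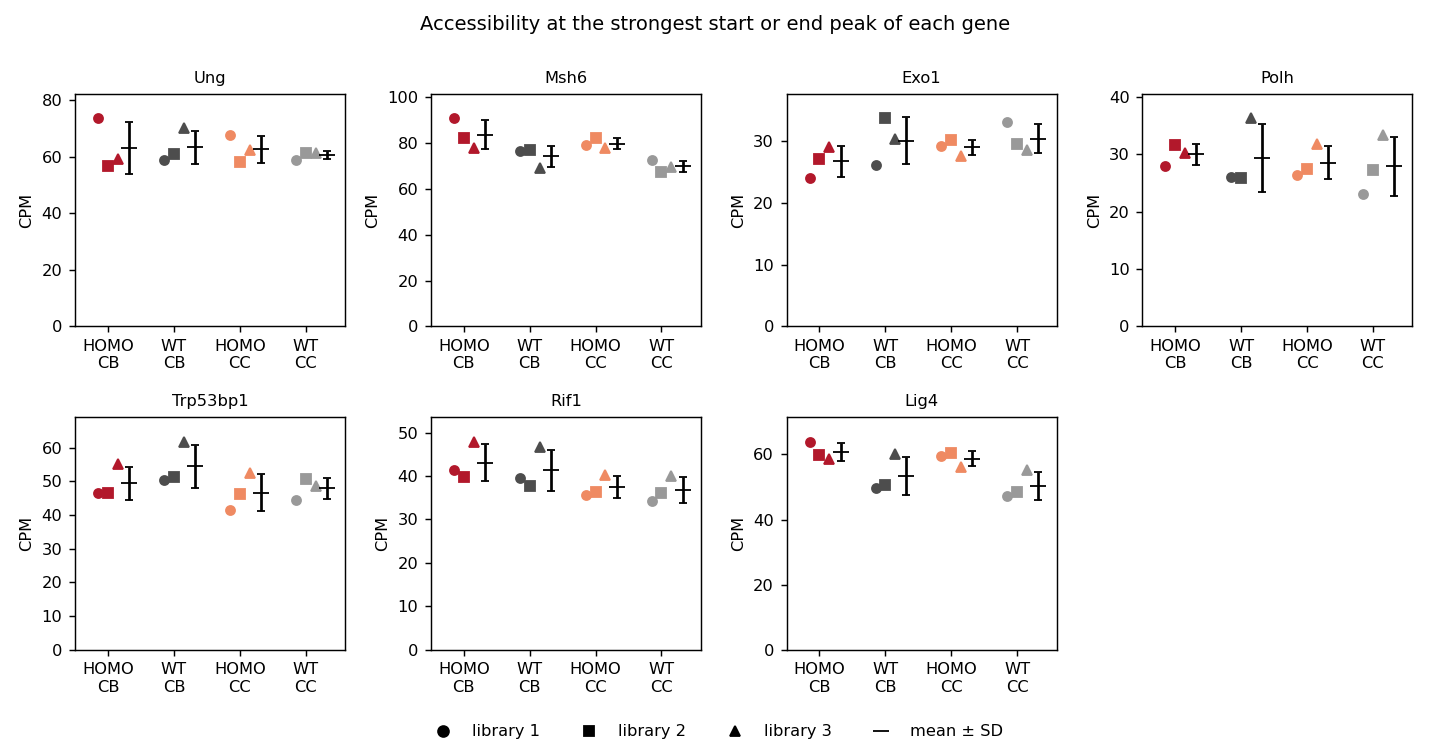
CPM at the strongest start or end peak of each of 7 genes in every library (points; circle, square and triangle are libraries 1, 2 and 3), with mean ± SD beside them, for HOMO CB, WT CB, HOMO CC and WT CC. HOMO and WT points of Msh6 do not overlap in either population, and those of Ung, Exo1, Polh, Trp53bp1 and Rif1 overlap in both.

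Counting peaks whose 3 HOMO libraries all lay on one side of the 3 WT libraries, 5 of 23 were higher in HOMO CB and 2 lower, against 10.3% and 13.2% of all peaks. In CC 5 were higher and 2 lower, against 9.81% and 11.2%. Those higher in both populations were Polh peak_61501 and Msh6 peak_62786 (2 of 23, against 3.19% of all peaks), and 0 were lower in both (6.08%). These peaks were picked out after their values were seen. No member peak had an HOMO effect that differed between CC and CB in edgeR's test of the difference, nor did any of all 68689 peaks. DESeq2 called 0 member peaks there, and 0 had an unadjusted p under 0.05 in edgeR, against 810 of all peaks.

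Msh6, Ung and Rif1 each had a pair of gene-end peaks, no more than 1 kb apart. The weaker was compared with the stronger inside each library, a description chosen after the values were seen. The Ung pair was formed at an end of Alkbh2, as its weaker peak lies over 1 kb from either end of Ung. The 2 gene-end peaks of Polh lie at opposite ends of the gene and were not paired. For Msh6 the ratio was 0.353, 0.279 and 0.303 in HOMO CC and 0.435, 0.452 and 0.473 in WT CC, with no overlap, and 0.348, 0.298 and 0.312 in HOMO CB and 0.408, 0.342 and 0.493 in WT CB. For Ung it was 0.282, 0.373 and 0.354 in HOMO CB and 0.435, 0.396 and 0.450 in WT CB, with no overlap. The log2 difference of the ratio, HOMO minus WT, was -0.36 in CB and -0.55 in CC for Msh6, -0.35 and -0.17 for Ung, and -0.16 and -0.17 for Rif1. These 6 differences were negative, as were 76.6% of 4587 such pairs in CB and 79.2% in CC, with medians of -0.21 and -0.22. The ratio was lower in HOMO without overlap at 30.8% of the 4587 pairs in CB and 31.4% in CC. The weaker gene-end peaks of the whole table stood lower in HOMO: at log2 CPM of 3 to 4 the median log2 fold change was -0.28 in CB and -0.24 in CC, and above 6 it was 0.02 and 0.09.

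**Figure D4:**
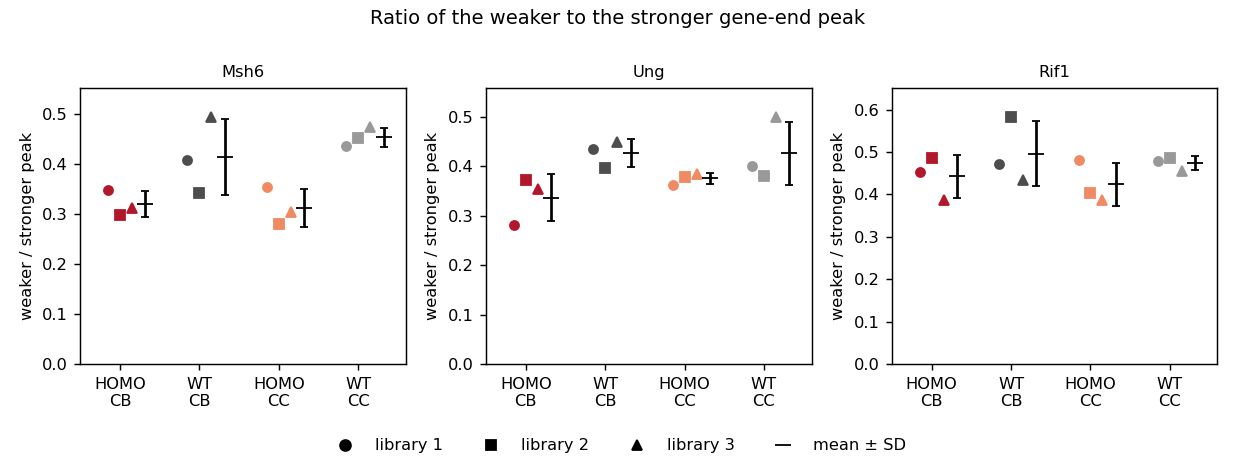
Ratio of the weaker to the stronger gene-end peak within each library (points, y axis without unit) for Msh6, Ung and Rif1, with mean ± SD, in HOMO CB, WT CB, HOMO CC and WT CC. The 3 HOMO CC points of Msh6, 0.279 to 0.353, lie below the 3 WT CC points, 0.435 to 0.473. Of 4587 such pairs in the whole table, 31.4% did the same in CC. The Ung pair lies at an end of Alkbh2.

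The second question was how these genes differ between the CC and CB populations. A site inside Polh was more open in every CC library than in any CB library of its genotype, and most start-site peaks overlapped between the populations. In HOMO 1 of 23 peaks passed the test, against 7.22% of all peaks, and it was higher in CC, as were 4.78% of all peaks. In WT no member peak passed in edgeR, where 5.43% of all peaks did. There 5 of 23 had an unadjusted p under 0.05, against 13665 of all 68689 peaks. DESeq2 called 1 member peak in WT (Polh peak_61501), against 4560 of all peaks. The HOMO call was the same Polh peak_61501, with the values given above: 6.21, 9.05 and 6.10 CPM in HOMO CC against 3.80, 5.10 and 4.06 CPM in HOMO CB. These libraries also enter the HOMO against WT comparisons above. The peak rose in HOMO CC with a log2 fold change of 0.71 (SE 0.20, edgeR adjusted p = 0.0362), and in WT the estimate was 0.73 (SE 0.22, adjusted p = 0.0571). The HOMO call was lost without HOMO CB 1 (adjusted p = 0.0883), HOMO CB 3 (0.172) or HOMO CC 2 (0.311).

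Same-numbered CC and CB libraries of a genotype deviated together, so a fit with the library number as a block is given as well. With the block, 6 of 23 peaks (26.1%) were called in HOMO, 1 higher and 5 lower in CC, when 22.2% of all peaks were called (12.5% higher, 9.68% lower). In WT 7 (30.4%) were called, 2 higher and 5 lower in CC, when 22.1% of all peaks were (10.4% higher, 11.8% lower). Taken over both directions, these shares of member peaks are not far above that background. Calls lower in CC, 5 of 23 in each genotype, took a larger share than over all peaks. Those higher in CC took a smaller one, and this split was not tested. Polh peak_61501 rose in both genotypes (0.71 in HOMO, edgeR adjusted p = 0.00104, and 0.72 in WT, adjusted p = 0.00471). Lig4 peak_30030, 857 bp inside the gene from its start, fell in both (-0.44 in HOMO, adjusted p = 2e-04, and -0.30 in WT, adjusted p = 0.0176). It had 18.0, 17.2 and 15.7 CPM in HOMO CC and 21.9, 23.3 and 22.3 CPM in HOMO CB. In WT it had 16.7, 19.1 and 14.7 CPM in CC and 21.7, 25.0 and 16.5 CPM in CB, so each CC library was below the CB library of its number in all 6 pairs. Trp53bp1 peak_7892 was called lower in CC in both (-0.73 in HOMO, adjusted p = 0.00993, and -0.64 in WT, adjusted p = 0.0391), although the HOMO pair numbered 1 went the other way (4.14 CPM in CC and 2.10 CPM in CB).

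The other calls with the block were for one genotype, and the test of the difference between genotypes given above called none of these peaks. In HOMO CC both Rif1 peaks fell (peak_6365, -0.20, edgeR adjusted p = 0.0261, and peak_6366, -0.29, adjusted p = 0.0193), as did Polh peak_61503 (-0.47, adjusted p = 0.00117). In WT CC the Trp53bp1 start peak fell (-0.20, adjusted p = 0.0271), as did its peak_7894 at the Map1a end (-0.25, adjusted p = 0.00492) and Msh6 peak_62785 (-0.82, adjusted p = 0.00813), and Trp53bp1 peak_7891 rose (0.86, adjusted p = 0.025). On summed counts no member passed without the block, where 4.84% of genes were called in HOMO and 3.7% in WT. With it Rif1 (-0.21, adjusted p = 0.00202) and Lig4 (-0.13, adjusted p = 0.0485) fell in HOMO CC, and Trp53bp1 fell in WT CC (-0.14, adjusted p = 0.0269). Of all genes, 22% were then called in HOMO (10.4% lower) and 20.8% in WT (9.24% lower).

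Without the block, groups that did not overlap numbered 3 higher and 6 lower of 23 in HOMO CC (13.5% and 11.5% of all peaks), and 2 higher and 4 lower in WT CC (12.2% and 12.7%). Higher in both genotypes were Polh peak_61501 and Trp53bp1 peak_7891, against 6.37% of all peaks. Lower in both were Msh6 peak_62785 and Rif1 peak_6366, against 5.08%.

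**Figure D5:**
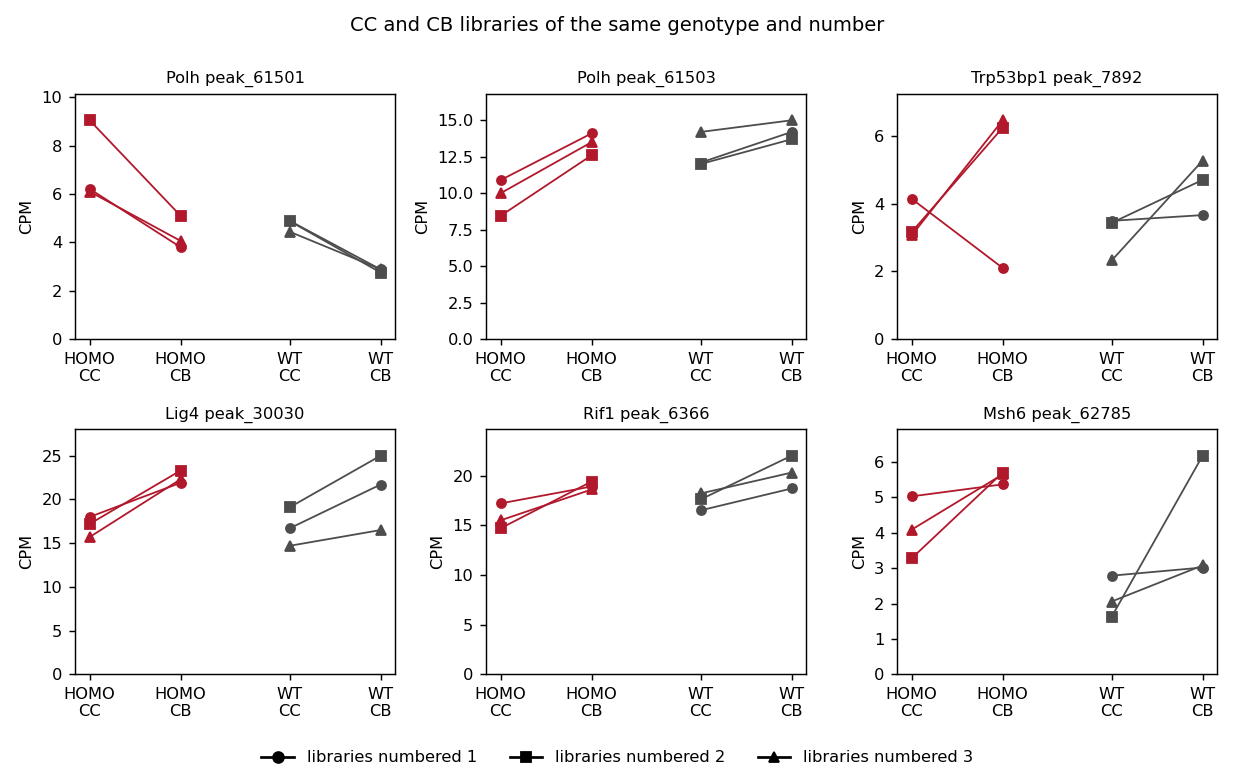
CPM in CC and CB libraries of the same genotype and number (lines join them) at 6 peaks of Polh, Trp53bp1, Lig4, Rif1 and Msh6, chosen after their values were seen. At Polh peak_61501 all 6 lines run lower towards CB, at Lig4 peak_30030 all 6 run higher, and at Trp53bp1 peak_7892 the HOMO line numbered 1 runs against the others.

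The wider pathway was followed through 50 further genes of base excision, mismatch repair, translesion synthesis, end protection, end joining and related steps, of which 47 had peaks, 233 in all. In HOMO CB 1 of these peaks rose and 8 fell, in total 3.86% against the 4.63% of all peaks. In HOMO CC 2 rose and 6 fell, 3.43% against 2.75%. The falling peaks in CB included 6 of the 63 gene-end peaks, or 9.52% against 9.43% of all gene-end peaks, and the rising one lay inside a gene. Median log2 fold changes of the 233 peaks were 0.075 in CB and 0.086 in CC.

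The called peaks with the lowest p-values in CB lay at Dynll1, Shld3 and Smug1. The start-or-end peak of Dynll1, the light chain that helps 53BP1 assemble, had 8.87 ± 1.21 CPM in HOMO CB and 16.5 ± 0.351 CPM in WT CB (SD, n = 3 each) and fell (log2 fold change -0.92, SE 0.15, edgeR adjusted p = 0.00246). It also fell in HOMO CC (8.06 ± 1.21 against 14.0 ± 0.735 CPM in WT CC, -0.76, adjusted p = 0.0131). A peak shared by Shld3, a shieldin subunit acting downstream of 53BP1 and RIF1, and its neighbour Trappc13 had 12.2 ± 0.818 CPM in HOMO CB and 20.4 ± 1.93 CPM in WT CB (-0.76, adjusted p = 0.00348). In CC its log2 fold change was -0.54 (adjusted p = 0.03). The same direction was seen at an end of Shld2, another shieldin gene, named after its values were seen (adjusted p = 0.0419 for -0.49 in CB and 0.0355 for -0.55 in CC). Shld2 lies 3.1 Mb from Pbrm1 on the same chromosome.

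Smug1, a uracil glycosylase gene like Ung, fell at an end peak with 20.6 ± 2.02 CPM in HOMO CB and 33 ± 2.67 CPM in WT CB (-0.69, SE 0.15, edgeR adjusted p = 0.0135). In CC the Smug1 peak with the smallest p lay 1505 bp outside the gene, with 7.22 ± 1.06 CPM in HOMO and 12 ± 0.68 CPM in WT (-0.73, adjusted p = 0.032). The rising peak in CB lay inside Rpa1, a single-strand binding protein gene (0.41, adjusted p = 0.0408). Leaving out each of 12 libraries in turn kept Dynll1 and Shld3 called in CB in all 12 fits and Smug1 in 10. Rpa1 stayed in 3, and in CC Dynll1 stayed in 10, and Shld3 and the Smug1 peak in 7, with the highest adjusted p, 0.238, at Smug1. Shld2 stayed called in 6 of the 12 fits in each population.

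Between populations, 7 of the 233 peaks rose and 8 fell in HOMO CC (6.44%, against 7.22% of all peaks). In WT CC 3 rose and 7 fell (4.29%, against 5.43% of all peaks). Peaks inside Xrcc6, which encodes the Ku70 end-binding protein, and inside Msh3, a mismatch repair gene, and one 6206 bp from Poli, a translesion polymerase gene, fell in both genotypes. At Xrcc6 there were 5.27 ± 0.242 CPM in HOMO CC and 13.6 ± 1.03 CPM in HOMO CB (-1.34, edgeR adjusted p = 7.77e-05), and 5.95 ± 0.589 CPM in WT CC and 13.8 ± 2.24 CPM in WT CB (-1.19, adjusted p = 0.000369). Log2 fold changes were -1.18 in HOMO and -0.91 in WT at Msh3, and -0.86 and -0.84 at Poli, all called in each of the 12 fits without a library. Rising in HOMO CC were peaks of Polk (0.78, edgeR adjusted p = 0.0123) and Ctnnbl1 (0.78, adjusted p = 0.0233), among others. Over the 12 fits without a library, Polk stayed called in 10 and Ctnnbl1 in 8. Peaks of Ctnnbl1 (0.91), Hmces (1.20) and Ercc6l2 (0.43) rose in WT CC. Their edgeR adjusted p was 0.015, 0.0303 and 0.0426, and they stayed called in 8, 7 and 3 of the 12 fits. Polk encodes a translesion polymerase.

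Finally, each member's strongest peak was set against at least 12638 gene-end peaks of other genes with a mean log2 CPM of at least 3, by Pearson's r of log2 CPM over the 12 libraries. The most alike were Slc35e1 for Polh (r = 0.965), Srsf10 for Lig4 (0.961), Hspg2 for Rif1 (0.96), Diaph2 for Msh6 (0.958) and Eya3 for Trp53bp1 (0.97). Ung was nearest to Kremen1 (0.906) and Exo1 to Shcbp1 (0.866). Such high values arise by selection among many candidates whose libraries share depth and group. Among the members themselves r was highest between Rif1 and Trp53bp1 (0.76) and lowest between Exo1 and Msh6 (-0.53), over the same 12 libraries.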

How the data were processed

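Omni-ATAC-seq libraries of 4 groups, 3 each, were analysed as grouped by the labels. The deposited file holds read counts made by the authors in 68689 peaks on mm10. The submitters' processing notes name FastQC, BWA, deepTools and R 4.2.1 without roles. These sources name no peak caller, read filter or handling of the Tn5 offset.

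The members, the lists of other pathway genes and markers, and the tests were chosen with earlier results of these data known. Peaks were assigned to the nearest of 21887 protein-coding spans (RefSeq, GRCm38.p6) within 50 kb, which placed 64044 peaks at 14357 genes, 882 of them tied between spans. Counts as deposited were fitted with edgeR 4.0.16 in R 4.3.3 (TMM factors 0.954 to 1.05, filterByExpr, which removed no peak, robust quasi-likelihood, 1 mean per group over 12 libraries, two-sided). P-values were Benjamini-Hochberg adjusted over all peaks, or over all genes for counts summed per gene, and called under 0.05. Every peak of a member is accounted for. Values are given in full for its strongest start or end peak and for called peaks. Of the other pathway genes up to 3 called peaks per direction and comparison were named. TMM factors enter the CPM values, with a prior count of 2 added for log2 CPM.

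As to precision, the common biological coefficient of variation was 0.142, log2 fold changes in CB had a median standard error of 0.2, and the chi-square per degree of freedom between libraries of a group was 2.28 to 7.66, so no pair agreed within counting noise. Each library's deviation from its group mean was correlated between libraries to see whether equal numbers mark pairs. For CC and CB of one genotype, r was 0.21 to 0.52 in the 6 same-numbered pairs and -0.34 to 0.12 in the rest, so the numbers were taken as pairs. For HOMO and WT, r was -0.01 to 0.40 for equal numbers and -0.30 to 0.18 for the rest, so not every pair passed 0.1 and no pairing was assumed. DESeq2 1.42.0, limma 3.58.1 (cyclic loess), other filters, windows and library subsets served as alternatives. Software was the R package data.table (version 1.17.8), Python 3.11.15, pandas 2.3.3 and numpy 2.4.6, with matplotlib 3.10.9 for figures. Peak sequences were not used here, as no genome was given. Results of some genes of the wider pathway are not reported here.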

Additional observations from a re-analysis of the deposited data

How the results depend on the processing

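The HOMO against WT estimates recomputed under each alternative were those of the strongest peaks, Polh peak_61501 and the Lig4 sum. Of these, 7, none past the threshold and none over 0.06 in size (log2), took the other sign under some alternative, always with an edgeR adjusted p of 0.828 or more. Polh peak_61504 ranged from -0.06 to 0.22 in CB and from -0.08 to 0.19 in CC over the fits without 1 library, and was -0.05 in CB without both WT libraries numbered 2. Rif1 peak_6365 ranged from -0.03 to 0.16 in CB and from -0.03 to 0.09 in CC, and was -0.01 in CC with cyclic loess. Ung peak_19805 ranged from -0.14 to 0.06 in CB and from -0.01 to 0.10 in CC, and was 0.01 in CB with a minimum mean log2 CPM of 2, and in CC -0.03 with cyclic loess and -0.01 without both HOMO libraries numbered 1. Trp53bp1 peak_7893 ranged from -0.12 to 0.04 in CC, and was 0.02 without both WT libraries numbered 2 and 0.04 without both HOMO libraries numbered 1. The count of member peaks called for HOMO against WT in CB was 0, and became 1 with DESeq2, 1 without both HOMO libraries numbered 1 (an alternative added after seeing the data) and 2 with the replicate block. In CC it was 0, and became 2 without those libraries and 5 with the replicate block. The labels do not pair libraries across genotypes, and same-numbered correlations, -0.01 to 0.40 against -0.30 to 0.18 for different numbers, leaned towards shared numbers without passing 0.1 in every pair. For CC against CB in HOMO the count was 1, and became 2 with DESeq2 and 6 with the replicate block. It became 0 with cyclic loess, with only the libraries of the contrast or without both WT libraries numbered 2. Keeping gene-end peaks only left out the called peak, which lies inside Polh, so the count of 0 there came without a new fit. Without both HOMO libraries numbered 1 the 1 call was Trp53bp1 peak_7892 and not Polh peak_61501. For CC against CB in WT it was 0, and became 1 with a minimum mean log2 CPM of 2, 1 with DESeq2, 1 without both HOMO libraries numbered 1 and 7 with the replicate block. On summed counts, HOMO against WT in CB called 1 gene, which became 2 with the replicate block and 0 with cyclic loess, with only the libraries of the contrast, without both WT libraries numbered 2, without both HOMO libraries numbered 1 or with the peak at the other Lig4 start in the sum (added after seeing the data). HOMO against WT in CC called 0 genes and 1 with the block, CC against CB in HOMO 0 and 2, and CC against CB in WT 0 and 1. The cause of these changes was not tested.

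Leaving out 1 library at a time gave 0 to 1 called peaks for HOMO against WT in CB, 0 to 1 in CC, 0 to 2 for CC against CB in HOMO and 0 to 0 in WT, and 0 to 1 genes in CB and 0 for the other comparisons. Without HOMO CC 1, Polh peak_61502 was called in CB and Trp53bp1 peak_7895 in CC. Over all peaks the counts depend on single libraries: HOMO against WT called 3178 peaks in CB and 341 without HOMO CB 2, and 1889 in CC and 17 without HOMO CC 2. With the replicate block these were 9097 and 7141. RLE size factors changed no call of a member. Fitting without a filter was the same fit, as the filter removed no peak. The 10 kb window only left peaks out of the main results, none of them called. The weak peaks, at 1 to 6 CPM, rest on few counts in the shallow libraries, such as 16 counts at Polh peak_61502 in HOMO CC 1.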
